A study of Mus musculus with 2 samples.

Results

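The imprinted Dlk1-Dio3 region of mouse chromosome 12 carries a long row of microRNA genes. Among those upstream of its Mir379 cluster, around Meg3 and across the gene Rtl1, 10 are described here. These 10 genes are Mir493, Mir337, Mir540, Mir665, Mir431, Mir433, Mir127, Mir434, Mir136 and Mir370. They were chosen by name and position, without a cut on their counts, from 2202 microRNA genes in all. Earlier results of these data were known when they were chosen. Small RNA under 30 nt was sequenced from the gastrocnemius, a calf muscle, of B6CASTF1/J mice, F1 hybrids whose parents are the strains C57BL/6J and CAST/EiJ. All animals were females aged 2 months, without any treatment named in the labels. The series has 1 group with 2 libraries, called replicate 1 and replicate 2. The labels call them biological replicates and give each its own animal number but 1 donor code, so whether their difference is one between animals or in part technical cannot be told. The p-values of the exact binomial test below hold counting error only. No second condition exists, and the values below describe the muscle and the difference between these libraries.

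In this region the maternally inherited chromosome expresses the noncoding RNAs Meg3, Rian and Mirg and the microRNAs, while the paternally inherited chromosome expresses the proteins Dlk1, Rtl1 and Dio3. Rtl1 derives from a retrotransposon and is needed in the placenta and in fetal muscle. The microRNAs on the strand opposite to Rtl1 are fully complementary to its message, and in mouse they are known to guide its cleavage. The counts do not separate the parental alleles, and neither Rtl1 nor Meg3 RNA was measured here.

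All 10 genes lie on the plus strand of chromosome 12, within 38.1 kb of the mm10 assembly. Mir431, Mir433, Mir127, Mir434 and Mir136 lie whole inside the coding sequence of Rtl1, which is on the minus strand from 109590172 to 109595403. Mir493, Mir337, Mir540 and Mir665 lie between the annotated ends of Meg3 and Rtl1 and in no other gene of those examined (Dlk1, Meg3, Rtl1, Rian and Mirg). Mir370 lies 22.9 kb beyond Mir136 in an intron of Rian, a noncoding gene that hosts small nucleolar RNAs. From upstream to downstream, Mir493 (ENSMUSG00000077025.2) spans 109580233 to 109580315 and Mir337 (ENSMUSG00000065526.4) 109585789 to 109585885. Mir540 (ENSMUSG00000072900.2) spans 109586080 to 109586146 and Mir665 (ENSMUSG00000076313.1) 109586314 to 109586407. Inside Rtl1, Mir431 (ENSMUSG00000070080.1) spans 109590447 to 109590537, Mir433 (ENSMUSG00000070072.1) 109591715 to 109591838 and Mir127 (ENSMUSG00000070076.2) 109592846 to 109592915. Mir434 (ENSMUSG00000070133.1) spans 109594506 to 109594599 and Mir136 (ENSMUSG00000104858.1) 109595327 to 109595388. Mir370 (ENSMUSG00000065433.1) spans 109618258 to 109618336. Hairpin sequences from RefSeq (GRCm38.p6) matched all 10 by symbol and had the coordinates of the GENCODE genes.

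The mature arms of the 5 genes opposite to Rtl1 are shown because their complements stand in the Rtl1 message. Capitals mark the seed, bases 2 to 8, which pairs with targets.
mmu-miR-431-5p: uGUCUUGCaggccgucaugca
mmu-miR-431-3p: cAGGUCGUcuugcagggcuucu
mmu-miR-433-5p: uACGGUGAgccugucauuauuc
mmu-miR-433-3p: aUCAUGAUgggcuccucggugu
mmu-miR-127-5p: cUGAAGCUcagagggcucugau
mmu-miR-127-3p: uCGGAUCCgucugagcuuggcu
mmu-miR-434-5p: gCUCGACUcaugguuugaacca
mmu-miR-434-3p: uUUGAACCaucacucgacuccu
mmu-miR-136-5p: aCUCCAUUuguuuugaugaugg
mmu-miR-136-3p: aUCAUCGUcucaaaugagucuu

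All 10 of these arms had a complete complement in the coding sequence of the GENCODE Rtl1 transcript, which follows from their position on its other strand. None of the 10 arms of the other 5 genes had one. The complements lie in pairs, a pair for each gene, spread along the coding sequence from near its start to near its end. Those of miR-136 begin at bases 17 and 52 of the coding sequence, those of miR-434 at 818 and 855, those of miR-127 at 2495 and 2529, those of miR-433 at 3602 and 3654, and those of miR-431 at 4881 and 4925, of 5235 bases with the stop codon. The site of miR-127-3p, an arm of the gene with the highest counts, is shown as an example, with the bases that pair with the seed in capitals (chr12:109592888-109592909, minus strand).
Rtl1 site of miR-127-3p: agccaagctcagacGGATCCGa

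The 20 mature arms of the 10 genes carry 20 different seeds, so no 2 of them belong to 1 seed family. Among 1738 mature microRNAs in the RefSeq table, 18 of the 20 share their seed with no other. The seed of miR-540-3p recurs in miR-6915-5p, whose gene Mir6915 had 0 counts in both libraries. The seed of miR-370-5p recurs in miR-1193-3p, a microRNA of the Mir379 cluster in the same region, and both are shown for that reason with the shared seed in capitals.
mmu-miR-370-5p: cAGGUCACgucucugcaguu
mmu-miR-1193-3p: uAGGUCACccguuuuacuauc

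Replicates 1 and 2 held 106 and 148 counts of Mir1193 and 20 and 16 of Mir370. The files count reads per gene, so the arms of a gene cannot be told apart. No complete mature sequence of the 10 genes occurred in another hairpin of the table. None occurred in a GENCODE transcript of another gene on either strand, leaving aside Rtl1, Meg3, Rian and the antisense microRNA genes.

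Repeated sequence sets Mir434 and Mir431 apart from the other 8 genes. The arms of Mir431 share a stretch of 10 bases, GUCUUGCAGG, and those of Mir434 a stretch of 9, UUUGAACCA. The longest stretch shared by both arms was 3 to 6 bases in the other 8 genes, and its median was 4 over 677 microRNA genes with 2 arms in the table. A shared stretch of at least 10 bases occurred in 4 of these 677 genes (0.591%) and one of at least 9 bases in 9 (1.33%). The Mir434 hairpin holds its stretch 3 times, marked in capitals (chr12:109594506-109594599, plus strand).
Mir434 hairpin: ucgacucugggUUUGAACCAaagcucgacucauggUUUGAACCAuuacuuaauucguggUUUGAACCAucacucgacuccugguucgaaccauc

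Reads on the same strand as a microRNA gene, here own-strand counts, numbered 1950204 in replicate 1 and 2291821 in replicate 2. A single count therefore equals 0.513 and 0.436 CPM, the own-strand count scaled to a fixed library total. Detection asked for 10 own-strand counts or more in both libraries, which 278 genes reached. Of the reads listed, 70.1% and 72.3% aligned to several places and are in no gene. All 9 listed skeletal muscle microRNAs were detected, with Mir206, which has a single gene, highest at 26708 and 41934 CPM. Their levels were uneven, with Mir133b at 18.5 and 23.6 CPM. Mir208b (122 and 761 CPM) and Mir499 (315 and 2497 CPM) differed widely between the libraries. For microRNAs with several gene copies the counts say little, since reads shared by the copies are in no gene. Mir1a-1 stood at 11.8 and 14.8 CPM, and the 3 Mir124a and 3 Mir9 genes of the neural list, at 0 in both libraries, do not show that neural RNA was absent. Of the 9 listed neural microRNAs 1 was detected, Mir137 (143 and 34 counts).

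All 10 genes were detected, and together they held a small, even share of the microRNA counts. Replicate 1 gave them 12748 counts, or 0.654%, with an exact Clopper-Pearson 95% interval of 0.642 to 0.665. Replicate 2 gave them 14784, or 0.645% (0.635 to 0.656). The mean was 0.649% ± 0.0061 (SD, n = 2). The labels name no molecular identifiers, so reads may be copies of 1 molecule, and intervals and floors cover counting error alone. In whole tissue, fewer cells of a type and less RNA per cell cannot be told apart.

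Their mean levels spanned 528-fold, from Mir127 at the top to Mir370 at the bottom. The span was 424-fold in replicate 1, with Mir370 lowest, and 1090-fold in replicate 2, with Mir665 lowest at 10 counts. Only 4 of the 10 lay at or above 123 CPM, the median of the 278 detected genes.

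**Figure D1:**
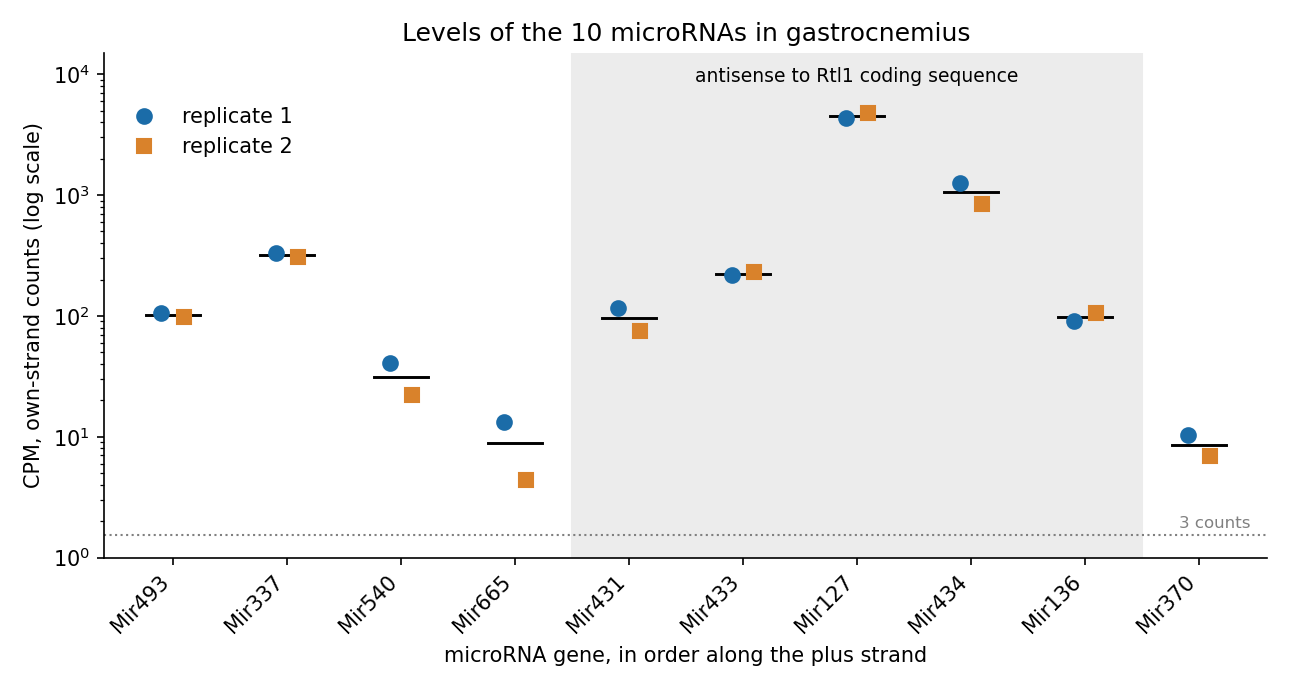
Own-strand CPM (log scale) of the 10 microRNA genes in replicate 1 (circles) and replicate 2 (squares), in their order along the plus strand, with the mean as a black bar. The shaded 5 genes lie opposite to the Rtl1 coding sequence, and Mir127, at 4344 and 4755 CPM, stands highest, while Mir665 and Mir370 lie closest to the dotted level of 3 counts.

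Among the genes opposite to Rtl1, Mir127 was the highest. Its microRNA is known in mouse to promote the differentiation of muscle satellite cells, the stem cells of muscle. Mir127 had 8471 counts (4344 CPM) in replicate 1 and 10898 counts (4755 CPM) in replicate 2, a mean of 4549 ± 291 CPM (SD, n = 2). It ranked 32 by mean among all microRNA genes. Its neighbours in that order were Mir151 (4985 CPM) and Mir145a (4685 CPM) above and Mir140 (4164 CPM) and Mir149 (4075 CPM) below. The 2 values of Mir127 lay closer together than those of Mir151 (4417 and 5552 CPM), Mir145a (6407 and 2964 CPM) and Mir149 (2952 and 5198 CPM), and farther apart than those of Mir140 (4195 and 4133 CPM).

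Mir434 came next at 2468 counts (1266 CPM) in replicate 1 and 1944 counts (848 CPM) in replicate 2, a mean of 1057 ± 295 CPM (SD, n = 2). Its 3p arm is known in mouse to protect muscle cells from apoptosis by way of Eif5a. Mir434 was thus higher in replicate 1, while Mir127 was higher in replicate 2, and the 2 genes lie 1.59 kb apart on the same strand. The ratio of Mir127 to Mir434 was 3.43 in replicate 1 and 5.61 in replicate 2.

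The other 3 genes opposite to Rtl1 were far lower. Mir433 had 427 and 526 counts (219 and 230 CPM), a mean of 224 ± 7.5 CPM (SD, n = 2). Mir136 had 178 and 243 counts (91.3 and 106 CPM), a mean of 98.7 ± 10.4 CPM. Mir431, whose microRNA is known in mouse to act on Pax7, a transcription factor of satellite cells, had 227 and 171 counts (116 and 74.6 CPM), a mean of 95.5 ± 29.5 CPM (SD, n = 2 each). A further gene opposite to Rtl1, Mir432, had 0 counts in both libraries, which allows up to 1.54 and 1.31 CPM (3 counts).

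Of the 5 genes outside Rtl1, Mir337 was the highest. Its counts were 647 (332 CPM) in replicate 1 and 701 (306 CPM) in replicate 2, with a mean of 319 ± 18.3 CPM (SD, n = 2). Mir493 had 205 and 224 counts (105 and 97.7 CPM), a mean of 101 ± 5.2 CPM. The next genes downstream were lower, although Mir540 begins only 0.195 kb past Mir337 and Mir665 only 0.168 kb past Mir540. Mir540 had 79 counts (40.5 CPM) in replicate 1 and 51 (22.3 CPM) in replicate 2, averaging 31.4 ± 12.9 CPM, and Mir665 had 26 and 10 counts (13.3 and 4.36 CPM), a mean of 8.85 ± 6.34 CPM (SD, n = 2 each). Mir370, in the Rian intron, stood at 10.3 and 6.98 CPM, averaging 8.62 ± 2.32 CPM (SD, n = 2). The count of 10 for Mir665 in replicate 2 is the detection minimum itself.

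Ordered by mean, the 10 genes ran Mir127, Mir434, Mir337, Mir433, Mir493, Mir136, Mir431, Mir540, Mir665 and Mir370. In 6 of the 9 steps of this order the values of both libraries lay apart. They overlapped between Mir493 and Mir136, between Mir136 and Mir431 and between Mir665 and Mir370, so the order within Mir493, Mir136 and Mir431 and within the last pair does not exceed the spread between libraries. The step between Mir337 and Mir433 was small, a mean ratio of 1.42.

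The counts were concentrated in the genes opposite to Rtl1. These 5 held 92.3% of the counts of the 10 genes in replicate 1 (91.9 to 92.8) and 93.2% in replicate 2 (92.8 to 93.6), and the other 5 held 7.66% and 6.78%. Mir127 and Mir434 held 85.8% and 86.9% of the counts between them. Without these 2, the 3 remaining genes opposite to Rtl1 held 832 and 940 counts, and the 5 genes outside Rtl1 held 977 and 1002. These sums cover unequal numbers of genes, and the highest genes were left out on the Rtl1 side only. They therefore do not rank the genes of the sides against each other.

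**Figure D2:**
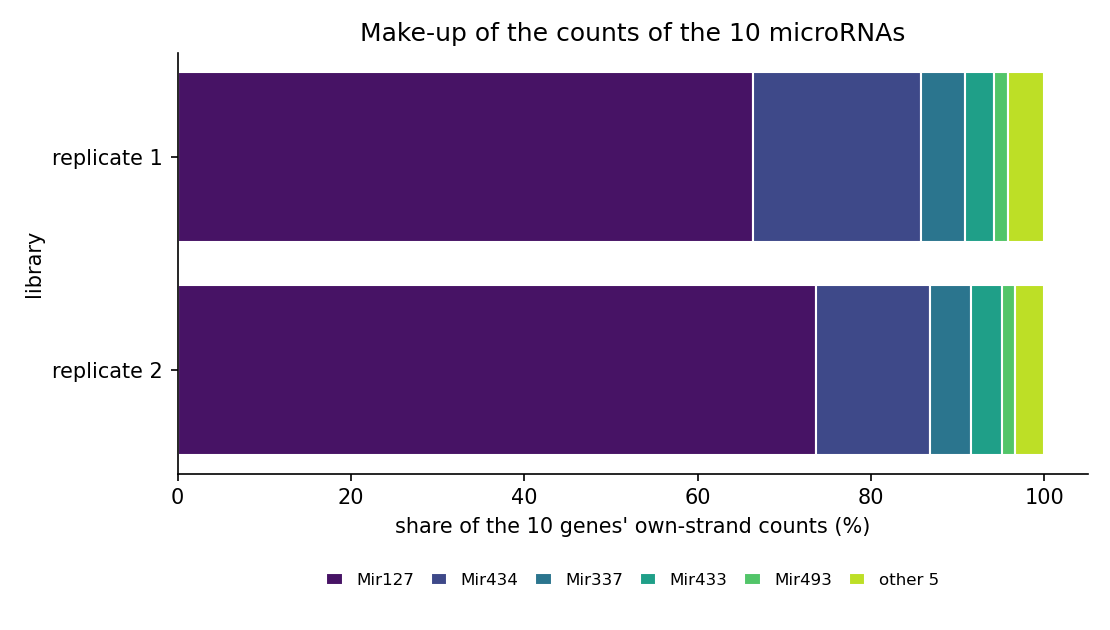
Share of the summed own-strand counts of the 10 genes (%) held by each of the 5 highest genes and by the other 5, in replicate 1 (upper bar) and replicate 2 (lower bar). Mir127 takes 66.4% in replicate 1 and 73.7% in replicate 2, and Mir434 takes 19.4% and 13.1%.

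Within this total, the share of Mir127 was 66.4% in replicate 1 (65.6 to 67.3) and 73.7% in replicate 2 (73.0 to 74.4). That of Mir434 was 19.4% (18.7 to 20.1) and 13.1% (12.6 to 13.7). The intervals of the libraries do not overlap for either gene, so the total stayed even while its make-up differed beyond counting error. With 1 library on each side, no spread between animals enters these intervals.

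Along the region, the 10 genes were compared with the downstream cluster, which runs from Mir379 to Mir410 with Mir3072 beyond it, and with other listed microRNAs of the stretch upstream of Mir379. The 10 genes held 34.6% of the region's listed microRNA counts in replicate 1 and 35.9% in replicate 2, against 64.8% and 63.5% for the downstream cluster. The downstream list has 39 genes in the files, of which 32 were detected. The median of the detected genes' mean was 100 CPM over the 10 genes and 56.1 CPM over those 32. The first median leaves out the 10 other listed upstream genes in the files. Over all of those, detected or not, the median was 0.218 CPM, and over all 39 downstream genes it was 38.2 CPM. The medians therefore depend on the list and on the detection minimum, and do not rank the upstream stretch against the cluster. Their difference was not tested.

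**Figure D3:**
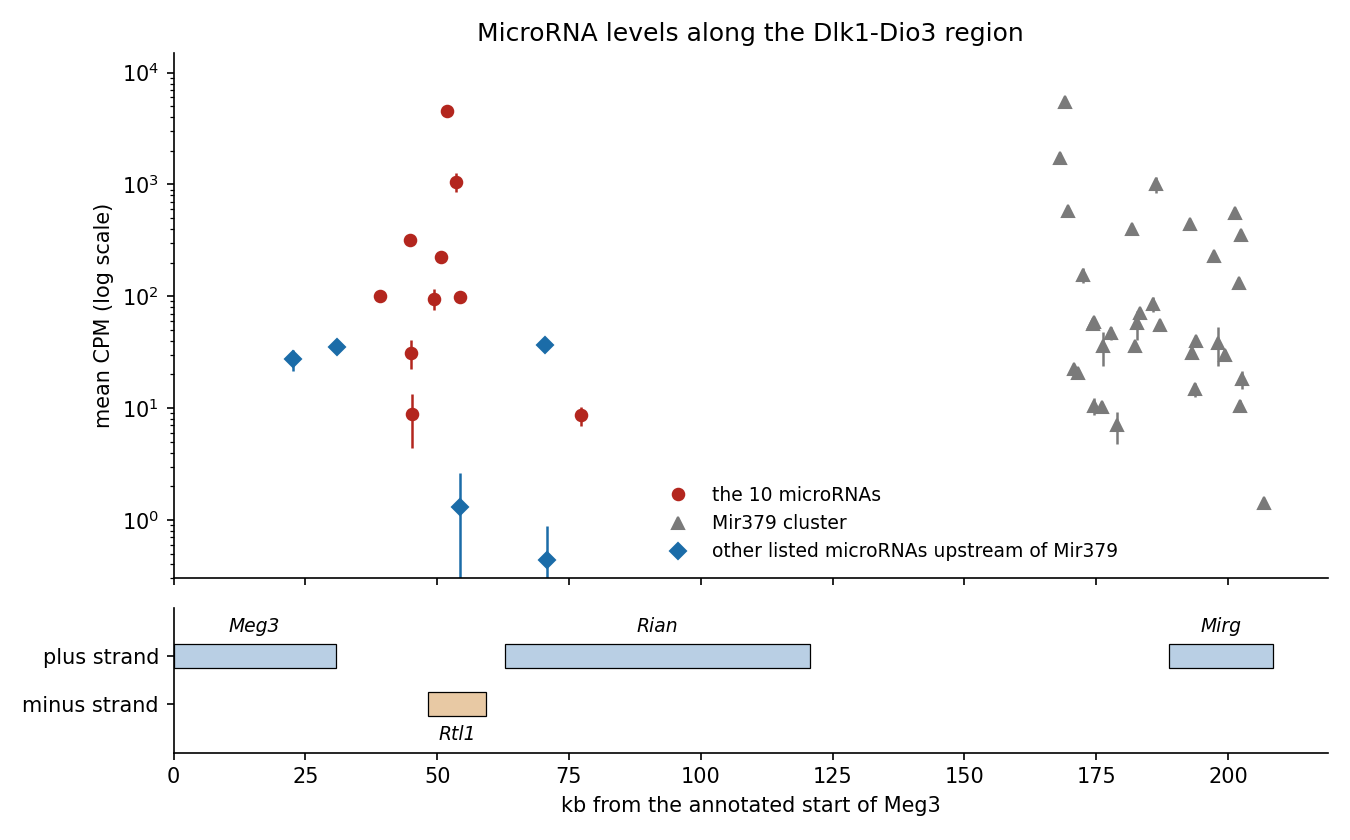
Mean own-strand CPM (log scale) of microRNA genes by distance from the annotated start of Meg3 in kb, with lines from the lower to the higher library. The 10 genes are circles, the downstream cluster triangles and the other listed genes diamonds, genes at 0 in both libraries are not drawn, and the lower panel gives the extent of 4 host or antisense genes by strand. High and low genes stand side by side in both stretches, with Mir127 second to Mir411 in the region.

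By mean, Mir127 ranked second among the 59 listed genes of the region and Mir434 was at rank 4. The 3 highest genes of the downstream cluster were Mir411 (5476 ± 545 CPM), Mir379 (1734 ± 236 CPM) and Mir487b (1003 ± 240 CPM; SD, n = 2 each). Of the 10 other listed genes upstream of Mir379, 3 were detected. These were Mir770 in an exon of Meg3 (27.4 ± 8.4 CPM), Mir673 just past the end of Meg3 (35.1 ± 1.0 CPM) and Mir341 in an intron of Rian (36.5 ± 4.2 CPM; SD, n = 2 each). All 3 lay close to the level of Mir540. Mir1906-1, Mir3070a, Mir3070b, Mir432 and Mir882 had 0 counts in both libraries. Imprinted microRNAs of other chromosomes, a list of 5 genes, held 0.237% and 0.210% of all counts.

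Mir337 and Mir136 each lie across from another microRNA gene, so their values depend on counting by strand. Mir337 shares 61 bases with Mir3544. Its strand had 647 reads against 3 in replicate 1 (99.54%, with a 95% Clopper-Pearson interval of 98.66 to 99.9) and 701 against 2 in replicate 2 (99.72%, 98.98 to 99.97). Mir136 shares all its 62 bases with Mir3071. Its strand had 178 reads against 0 in replicate 1 (100%, 97.95 to 100) and 243 against 6 in replicate 2 (97.59%, 94.83 to 99.11). In the counts of either strand both genes are listed at 0 in both libraries. The other 8 genes had no read on the opposite strand in either library, so reads from the Rtl1 strand, up to the limit of 3 counts, were not detected within Mir431, Mir433, Mir127 or Mir434.

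The libraries were last compared gene by gene, which sets 1 library against the other and tests no condition. A gene was called at 2-fold or more with an adjusted p under 0.05 in a two-sided exact binomial test, adjusted by Benjamini-Hochberg over the 278 detected genes. The call went to 1 of the 10 genes, Mir665, where 33 of all 278 genes (11.9%) were called, so the share among the 10 was close to the background. The log2 ratio of Mir665, replicate 1 over replicate 2, was 1.58 (SE 0.54 from counting; 95% exact interval 0.48 to 2.79; adjusted exact p = 0.00486). It rests on 26 against 10 counts, and the edgeR exact test, with a dispersion estimated from these libraries, did not call it (unadjusted p = 0.0925, adjusted p = 1).

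**Figure D4:**
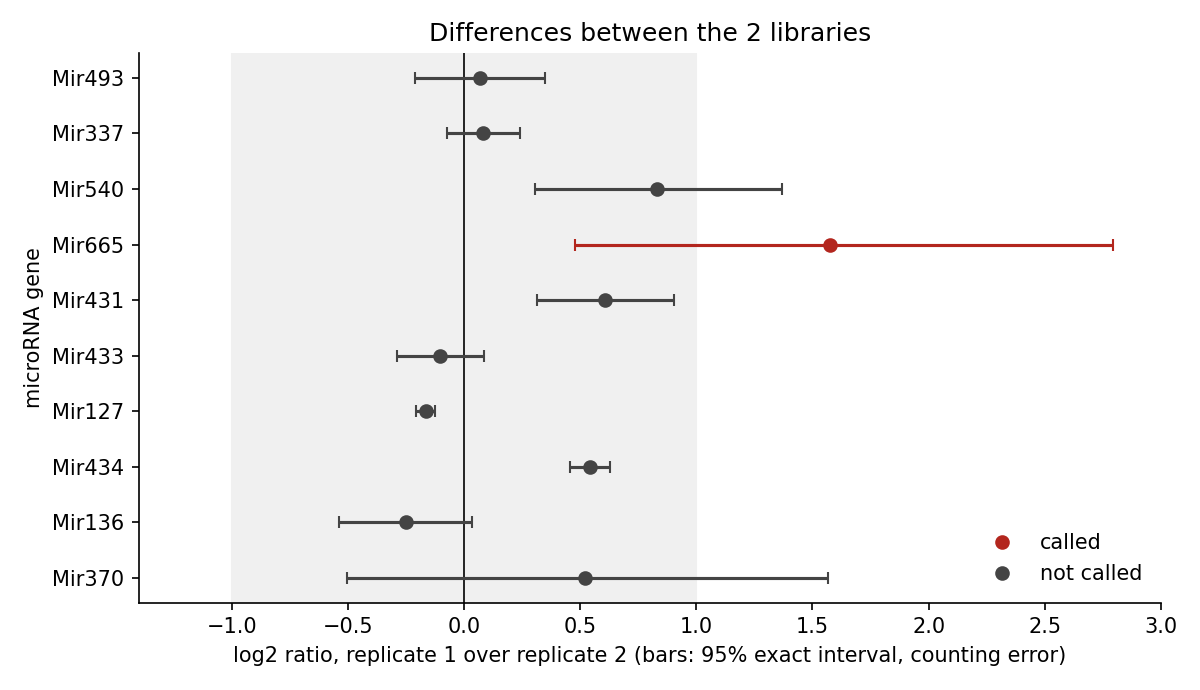
Log2 ratio of replicate 1 over replicate 2 for each of the 10 genes, from own-strand counts with TMM scaling, with 95% exact intervals for counting error. The grey band marks less than 2-fold, and Mir665 (1.58) is the only point of the 10 outside it, with an interval that reaches into it.

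Smaller differences were also beyond counting error. Without the 2-fold minimum, 5 of the 10 genes had an adjusted exact p under 0.05, against 55.4% of all detected genes. Mir434 was higher in replicate 1 by 0.54 (SE 0.044, adjusted exact p = 8.64e-35), Mir431 by 0.61 (SE 0.15, adjusted exact p = 9.09e-05) and Mir540 by 0.83 (SE 0.26, adjusted exact p = 0.00312). Mir127 was lower in replicate 1 by a log2 ratio of −0.17 (SE 0.021, adjusted exact p = 1.12e-14). For Mir493, Mir337, Mir433, Mir136 and Mir370 the log2 ratios were 0.07, 0.08, −0.10, −0.25 and 0.52, and each interval included 0. The biological coefficient of variation, as edgeR names it, was estimated at 0.352, and with it none of the 10 genes was called. It was estimated from the 2 libraries taken as 1 group and may be in part technical. The differences under test were thus themselves counted as spread, so the lack of calls cannot show that the libraries are alike.

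Over the 10 genes the median log2 ratio was 0.30, with 7 higher in replicate 1 and 3 lower, against a median of 0.03 over all detected genes. The median over the 10 depended on the filter and the strand, at 0.07 over the 8 genes left by a filter of 50 counts and 0.51 over the 8 left on counts of either strand. Over the 32 detected genes of the downstream cluster it was 0.06, with 17 higher and 15 lower. That cluster had 2 calls, Mir543 and Mir496a, and the 3 detected genes of the upstream stretch had none. The shares of marker lists in these libraries were as follows. Satellite cell microRNAs (Mir31, Mir489 and Mir708, 2 of 3 detected) held 0.0622% of counts in replicate 1 and 0.0100% in replicate 2, with Mir489 at 0 and 2 counts. Muscle microRNAs (9 of 9 detected) held 2.79% and 4.66%, neural ones (1 of 9 detected) 0.00805% and 0.00223%, and fibroblast ones (3 of 4 detected) 0.149% and 0.151%. A single gene made up most of each of these shares in both libraries. Mir206 gave 52086 of 54497 and 96104 of 106677 muscle counts, and Mir708 gave 1117 of 1213 and 216 of 230 satellite cell counts. Mir214 gave 2631 of 2909 and 3330 of 3470 fibroblast counts, and Mir137 gave 143 of 157 and 34 of 51 neural counts. The part of these lists in the ratios of the 10 genes was not tested.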

How the data were processed

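Small RNA from 2 gastrocnemius libraries was analysed from counts that the authors deposited per microRNA gene, raw and given for either strand, the own strand and the opposite strand. The meaning of the columns was read from the values. Reads were assigned to GENCODE mouse release 21 on mm10, per the deposited notes. Neither aligner nor counter is given in the sources used here. Rows that name no gene (unmapped, several places, outside genes or ambiguous) held 79.3% and 84.1% of reads listed. Library sizes and tests exclude them.

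All 2202 identifiers matched GENCODE. CPM used own-strand totals. Libraries were compared with a conditional exact binomial test given TMM-scaled sizes (edgeR 4.0.16, R 4.3.3), adjusted over all detected genes. It was also run on simulated counts with known fold changes, counting error only and no TMM scaling. That run cannot show how the test behaves where libraries differ by more than counting error. The quasi-likelihood test needs a second group. Alternatives used DESeq2 1.42.0 size factors, other filters, strands and denominators, and an edgeR exact test. Log2 ratios carry no prior count. Sequences came from RefSeq (GRCm38.p6). Intervals used scipy 1.17.1 in Python 3.11.15.

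The genes, lists and tests were chosen with earlier results of these data known. Named besides the 10 genes were the listed upstream microRNAs, the 3 highest of the Mir379 cluster and the 4 rank neighbours of the highest gene. Mir543, Mir496a, Mir1193, Mir6915, the antisense partners and the markers were named after their values were seen.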

Additional observations from a re-analysis of the deposited data

Results flagged for a closer look

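Reads on the strand opposite to Mir136 numbered 6 in replicate 2, above the limit of 3 counts, and 0 in replicate 1. They are listed because they lie outside the own-strand counts used for Mir136. They were counted as own-strand reads of Mir3071, which overlaps it, on the strand of Rtl1.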

How the results depend on the processing

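Of the 10 genes, 1 was called. The count was 1 with library totals, DESeq2 size factors, no filter or counts of either strand. It was 0 with a filter of 50 counts, which removes Mir665 and Mir370, and with the edgeR exact test, and 5 without the 2-fold minimum. Over all genes tested, 33 calls became 18, 7 and 154 under these 3 settings. Counts of either strand set Mir337 and Mir136 to 0, so no ratio could be had for them, and gave the 10 genes 0.832% of counts. The other 8 genes kept the same counts. Their higher share and levels come from smaller library totals, 1485632 and 1607502 against 1950204 and 2291821 on the own strand. With all reads listed as denominator they held 0.119%. Without replicate 1 or replicate 2 the share was 0.645% or 0.654%. No available ratio changed direction under any of the 7 alternatives. The edgeR exact test and the setting without the 2-fold minimum keep the main ratios, so neither could change a direction. The adjusted p of Mir665 ranged from 0.00467 (exact binomial test, library totals) to 1 (edgeR exact test). Of the levels of the 10 genes, 10 were lower with all reads listed as denominator, and, on counts of either strand, 6 moved up by over 1 SD and 2 were at 0. All 10 genes had at least 3 counts in each library, and 8 had at least 50. Detection on counts of either strand, an alternative added after the data were seen, kept 8. With 1 library per side, leaving one out gives no ratio. No paired analysis was possible because the series has 1 group. The 10 to 26 counts of Mir665 and the 16 to 20 of Mir370 limit their precision, as do reads that aligned to several places.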
